A study of Homo sapiens with 6 samples.

Results

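The genes described here are the zinc finger genes of human chromosome 19, taken as every protein-coding gene on that chromosome whose symbol begins with ZNF or ZFP, with ZFP36 and ZFP36L1 left out because they belong to another protein family. They numbered 253 of the 58288 genes in the expression table. RNA was measured in K562, a human erythroleukemic cell line, in 2 rescues of 3 libraries each. In the 2KR-MYB rescue the cells stably expressed 3xFLAG-2KR-Myb-HA, a tagged MYB that cannot be conjugated to SUMO, and in the ANAA-MYB rescue they stably expressed 3xFLAG-ANAA-Myb-HA, whose SUMO interaction motif is mutated so that it does not bind SUMO. All 6 libraries were made 24 h after transfection of the same siRNA against endogenous MYB (si2992), under the same G418 selection. Each mutant was carried by 1 single cell clone, so the clone and the mutant cannot be told apart in any difference below, and p-values cover the spread between replicates of those clones alone.

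Most of these genes encode KRAB zinc finger proteins. Their C2H2 zinc fingers, strung one after another, read DNA, and the KRAB domain recruits the corepressor TRIM28 (KAP1), which brings in the histone methyltransferase SETDB1 and HP1 proteins and so establishes H3K9me3 heterochromatin. Many of them bind transposable elements, and much of the family sits in clusters on chromosome 19 that arose by tandem duplication. TRIM28 is itself modified by SUMO, and that modification takes part in recruiting SETDB1.

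The 6 genes with the largest absolute difference between the rescues are shown first by their promoters, to give the sequence around the start of the genes the results turn on. Each window runs from 250 bases before to 50 bases after the annotated start and was taken from RefSeq on GRCh38.p14, 5′ to 3′ in the gene's own direction. The window of ZNF880 lies inside the gene bounds given below, so it surrounds an annotated start downstream of the gene's first base. For ZNF677 and ZNF875, which have 2 and 5 listed windows, the one listed first is given. Capitals mark a MYB-type word, TAACNG or CAACNG, on either strand.
ZNF677, chr19:53254774-53255073, minus strand: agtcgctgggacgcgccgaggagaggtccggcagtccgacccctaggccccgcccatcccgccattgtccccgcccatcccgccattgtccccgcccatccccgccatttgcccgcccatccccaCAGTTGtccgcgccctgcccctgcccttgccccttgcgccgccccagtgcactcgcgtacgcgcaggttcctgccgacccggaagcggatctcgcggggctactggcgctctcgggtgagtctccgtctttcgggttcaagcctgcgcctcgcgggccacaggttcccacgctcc
ZNF433, chr19:12035630-12035929, minus strand: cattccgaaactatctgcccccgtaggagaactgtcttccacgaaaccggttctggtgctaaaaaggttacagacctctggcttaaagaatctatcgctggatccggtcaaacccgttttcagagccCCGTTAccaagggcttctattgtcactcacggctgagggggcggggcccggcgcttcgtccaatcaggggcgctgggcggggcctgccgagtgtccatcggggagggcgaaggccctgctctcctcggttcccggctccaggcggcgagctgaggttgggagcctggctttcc
ZNF461, chr19:36666788-36667087, minus strand: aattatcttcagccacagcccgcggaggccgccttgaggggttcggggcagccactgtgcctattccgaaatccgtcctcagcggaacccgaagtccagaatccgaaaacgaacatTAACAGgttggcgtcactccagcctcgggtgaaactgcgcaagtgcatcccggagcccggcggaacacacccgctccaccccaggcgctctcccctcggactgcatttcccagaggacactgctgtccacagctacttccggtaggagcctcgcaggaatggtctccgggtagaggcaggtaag
ZNF875, chr19:37312587-37312886, plus strand: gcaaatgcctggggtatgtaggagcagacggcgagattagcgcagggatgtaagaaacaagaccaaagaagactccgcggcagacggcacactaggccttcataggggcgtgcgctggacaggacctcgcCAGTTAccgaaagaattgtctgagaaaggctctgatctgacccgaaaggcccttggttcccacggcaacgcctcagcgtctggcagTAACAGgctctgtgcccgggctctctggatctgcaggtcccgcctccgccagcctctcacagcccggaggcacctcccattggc
ZNF569, chr19:37467395-37467694, minus strand: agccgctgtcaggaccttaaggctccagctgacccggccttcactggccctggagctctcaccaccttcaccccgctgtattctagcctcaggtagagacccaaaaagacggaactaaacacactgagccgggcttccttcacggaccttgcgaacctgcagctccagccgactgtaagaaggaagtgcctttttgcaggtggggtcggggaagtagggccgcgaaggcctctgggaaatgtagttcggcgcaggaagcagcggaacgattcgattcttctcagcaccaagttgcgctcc
ZNF880, chr19:52369673-52369972, plus strand: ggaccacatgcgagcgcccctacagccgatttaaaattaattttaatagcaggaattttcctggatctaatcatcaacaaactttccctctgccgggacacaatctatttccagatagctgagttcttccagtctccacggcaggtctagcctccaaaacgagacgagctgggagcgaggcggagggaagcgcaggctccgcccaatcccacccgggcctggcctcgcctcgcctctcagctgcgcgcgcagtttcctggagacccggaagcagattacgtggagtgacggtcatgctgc
The windows of ZNF677, ZNF433 and ZNF461 each held 1 such word, that of ZNF875 held 2, and those of ZNF569 and ZNF880 held none. Over the 220 of the 253 genes that have a RefSeq window, 35.9% held either form, against 46.3% of the 27305 windows of all genes. The family's promoters held a median of 20 CpG per window against 14 over all genes. Among tested genes the order turned, with a median of 20 in the family and 27 in all protein-coding genes. In the 6 windows shown the number ran from 17 in ZNF569 to 34 in ZNF677. The NRF1 consensus, also searched on both strands, lay in 12.7% of the family's windows against 6.28% of all windows. Among expressed genes the shares were closer, as it lay in 11.7% of the windows of the family's tested genes and in 12.9% of those of all tested protein-coding genes. A palindromic CGCG element lay in 0.909% of the family's windows against 0.469% of all windows. A match to these letters describes the window and is not a binding site.

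Expression was deposited as FPKM, fragments scaled to transcript length and to the size of the library, a level per length that can be compared between genes. The family was expressed at low to moderate levels, with a median over the 253 genes of 2.61 FPKM. ZNF536, ZNF471, ZNF135 and ZNF470-DT were listed at 0 in all 6 libraries, 23 further genes averaged under 0.1 FPKM and 55 averaged 0.1 to 1 FPKM. At or above a mean of 1 FPKM, the filter for testing, were 171 genes, of which 91 averaged 1 to 5, 45 averaged 5 to 10 and 35 averaged 10 FPKM or more. ZNF146, a protein made of zinc fingers with no KRAB domain, stood far above the rest with 89.4, 91.6 and 91.0 FPKM under 2KR-MYB rescue against 93.8, 97.6 and 105 FPKM under ANAA-MYB rescue. ZNF480 followed at 24.6, 26.1 and 29.7 against 29.6, 31.5 and 33.2 FPKM. Next came ZNF83 at 22.1, 24.1 and 24.6 against 22.8, 22.1 and 23.0 FPKM and ZNF266 at 18.6, 20.6 and 17.2 against 18.99, 20.3 and 21.9 FPKM. None of these 4 passed the threshold between the rescues (limma adjusted p 0.12 for ZNF146, 0.063 for ZNF480, 0.498 for ZNF83 and 0.320 for ZNF266). The fifth by mean level was ZNF93, which is known to repress L1 retrotransposons. It read 23.0, 22.8 and 23.8 FPKM against 14.04, 16.2 and 16.2 FPKM, a log2 fold change of 0.56 ± 0.065 (SE, limma adjusted p 0.000784), and its range over the 6 libraries overlapped that of ZNF266, so the order of these neighbours is not resolved.

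**Figure D1:**
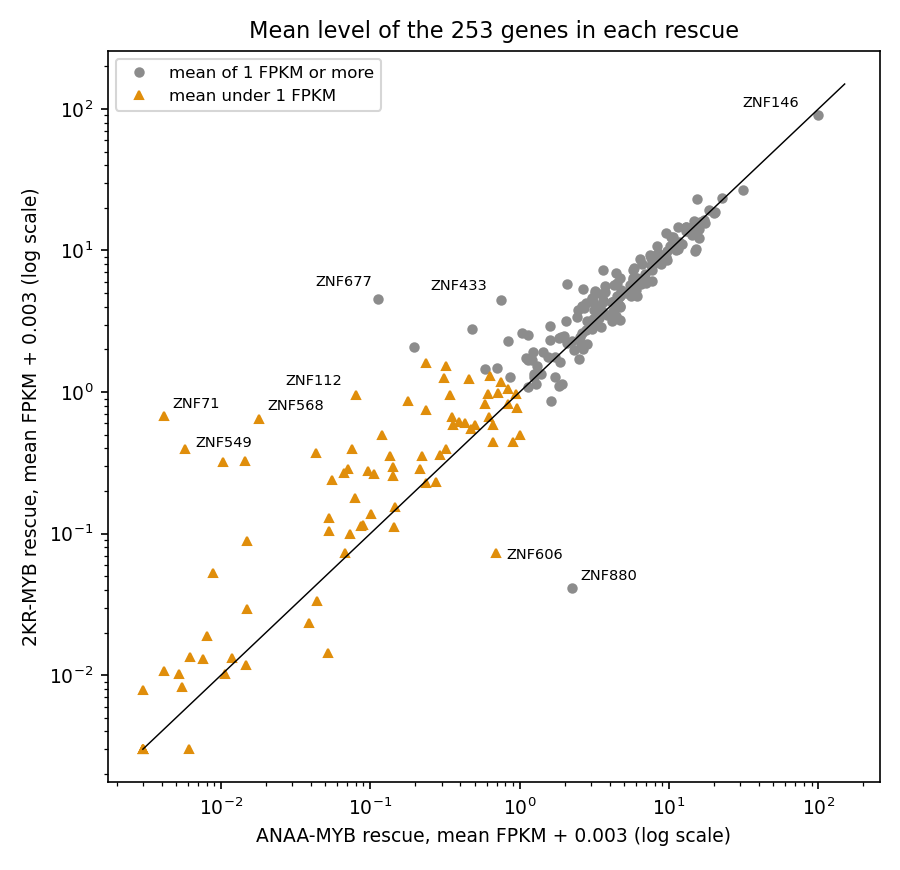
Mean FPKM + 0.003 of each of the 253 genes in the ANAA-MYB rescue (horizontal) and the 2KR-MYB rescue (vertical), both on log axes; the line marks equal levels. Grey circles average 1 FPKM or more over the 6 libraries and orange triangles less; most of the triangles lie above the line, and ZNF677 and ZNF880 lie far from it on opposite sides.

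Across the family, genes that differed between the SUMO mutants were mostly higher in the 2KR-MYB rescue. With limma on log2(FPKM + 1) and an adjusted p under 0.01 over all 12634 tested genes, 27 of the 171 tested zinc finger genes passed, or 15.8%, against a background of 13.0% of all tested genes. The count as a whole was near the background and the direction was not. Higher with 2KR-MYB were 24, or 14.04% against 5.57% of all genes, and higher with ANAA-MYB were 3, or 1.75% against 7.42%. Some called genes averaged under 1 FPKM in one rescue, such as ZNF677, ZNF433, ZNF461, ZNF875 and ZNF527 with ANAA-MYB and ZNF880 with 2KR-MYB. They reached the filter for testing only through the rescue where they were high, so these counts describe the direction and do not test it. Over all genes the split was 704 higher and 938 lower with 2KR-MYB, and after scaling each library to its upper quartile 949 of 1741 were higher. The median log2 fold change of the tested family was 0.056, with 101 of 171 genes above 0 (59.1%), against -0.015 and 46.8% for all tested genes. When 1 library was left out the family's count fell to between 12 and 20 of 171, of which 10 to 17 were higher with 2KR-MYB and 2 or 3 with ANAA-MYB. In the same fits 831 to 1139 of all 12634 tested genes passed, of which 314 to 457 were higher with 2KR-MYB. Without 2KR-MYB replicate 2 the family's whole count, 12 of 171, was at the background, 855 of 12634.

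**Figure D2:**
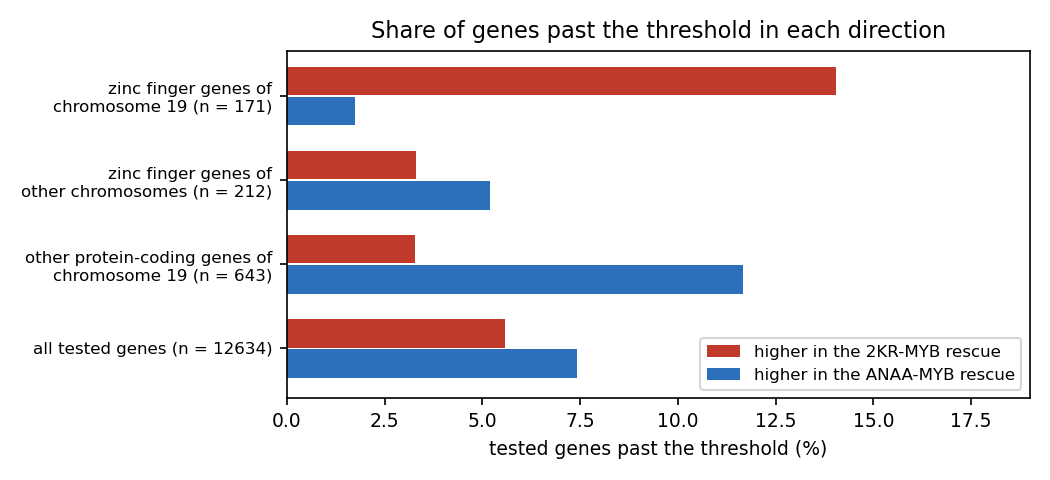
Share of tested genes past the threshold (adjusted p under 0.01) in each direction, in percent, for 4 sets of genes; n is the number tested. Red bars are genes higher in the 2KR-MYB rescue and blue bars genes higher in the ANAA-MYB rescue; the zinc finger genes of chromosome 19 have the longest red bar (14.04%) and the shortest blue one (1.75%).

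The same split was not seen in the gene sets that share the name or the chromosome. Of 212 tested ZNF and ZFP genes on other chromosomes, 18 passed, 7 higher with 2KR-MYB and 11 lower, with a median log2 fold change of -0.0049. Of 643 other tested protein-coding genes on chromosome 19, 96 passed, 21 higher with 2KR-MYB and 75 lower, with a median of -0.093. These are counts and medians, and no test between the sets was made. The libraries of the rescues did not overlap, with 2KR-MYB on top, for 54 of the 171 genes (31.6%, background 20.1%) and with ANAA-MYB on top for 28, so that 82 genes were fully apart (48.0%, background 44.9%).

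The median deviation of the 171 genes from their own mean was 0.020, 0.037 and 0.038 on the log2 scale in the 2KR-MYB libraries and -0.056, -0.070 and 0.035 in the ANAA-MYB libraries. By this measure the third ANAA-MYB library lay among the 2KR-MYB libraries, and the groups overlapped. Over the 171 genes Pearson's r of log2(FPKM + 1) was 0.982 to 0.987 between libraries of the same rescue and 0.909 to 0.917 between rescues, a description across genes, which are not independent replicates.

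ZNF677, a KRAB zinc finger gene known to be methylated and silent in some cancers, showed the largest increase. It read 4.85, 4.64 and 4.22 FPKM with 2KR-MYB against 0.114, 0.126 and 0.087 FPKM with ANAA-MYB. The means were 41.9-fold apart, and the log2 fold change was 2.33 ± 0.096 (SE, limma adjusted p 7.75e-06). ZNF433 read 4.26, 4.84 and 4.20 against 0.444, 0.792 and 1.01 FPKM, a log2 fold change of 1.65 ± 0.13 (SE, limma adjusted p 0.000149). All 3 ANAA-MYB values of ZNF433 lay below the lowest 2KR-MYB value, although they differed among themselves more than those of ZNF677. The exact two-sided permutation test of FPKM gave p = 0.1 for every one of the 27 genes, which is the smallest value that 3 against 3 libraries allow.

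The gene that moved furthest in the other direction was ZNF880. It read 0.092, 0 and 0.022 FPKM with 2KR-MYB against 2.09, 2.55 and 2.09 FPKM with ANAA-MYB. Its log2 fold change was -1.64 ± 0.12 (SE, limma adjusted p 8.77e-05). It was the only gene of the family under 0.1 FPKM in every library of one rescue and at or above 1 FPKM in every library of the other. ZNF880 (chromosome 19, 52366858 to 52397666 on GRCh38) and ZNF677 (53235381 to 53254873) lie in the same cluster and moved in opposite directions. ZNF584 read 10.5, 10.4 and 9.92 against 15.4, 15.5 and 14.8 FPKM, with a log2 fold change of -0.52 ± 0.053 (SE, limma adjusted p 0.000437). ZNF257 read 10.4, 9.90 and 9.52 against 13.4, 13.9 and 17.2 FPKM, with a log2 fold change of -0.53 ± 0.091 (SE, limma adjusted p 0.00458). Of these 3 genes ZNF880 was close to 0 in one clone and the other 2 were well expressed in both. ZNF257 missed the threshold with any of 4 libraries left out, with a limma adjusted p of up to 0.0196.

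**Figure D3:**
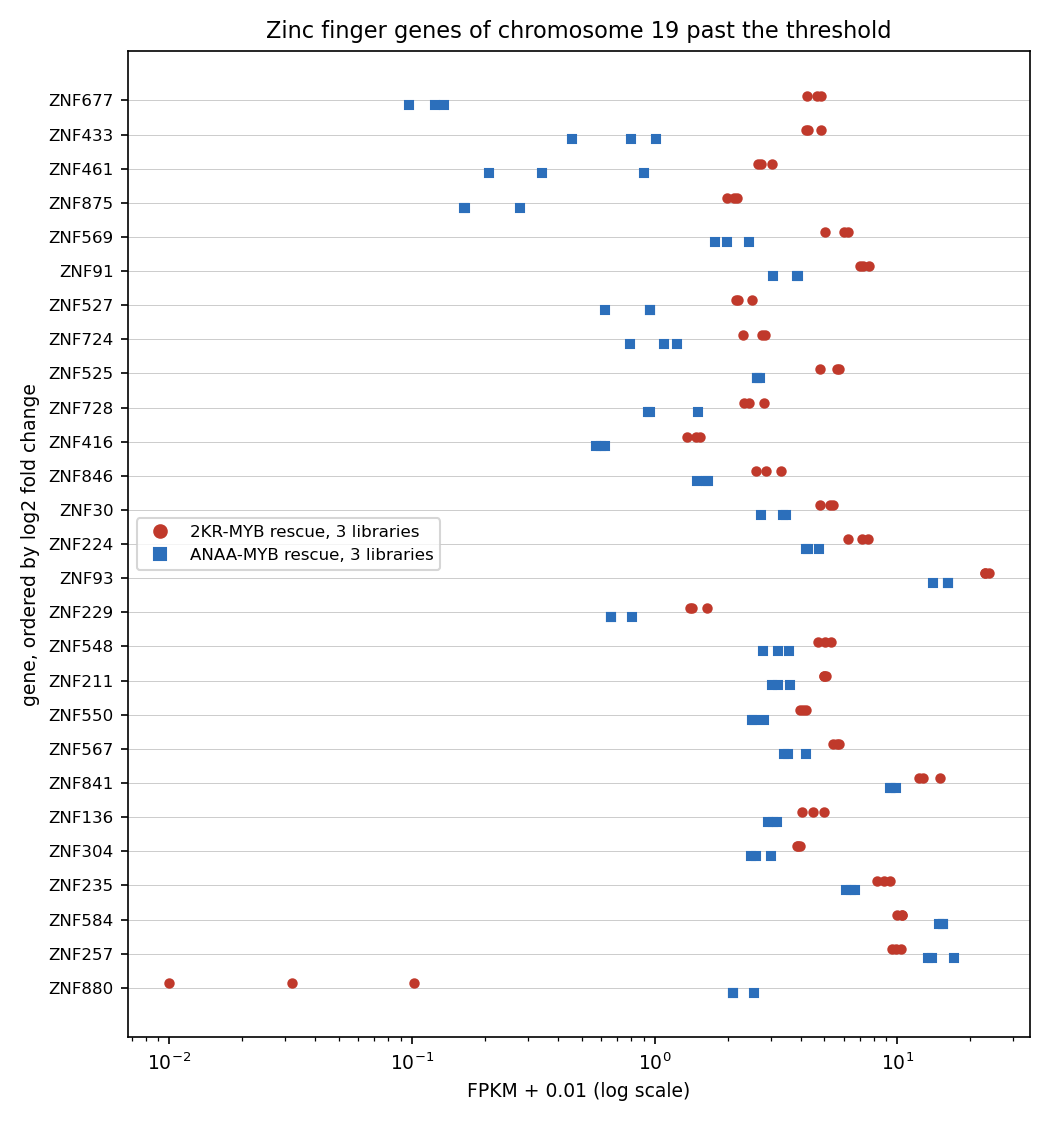
FPKM + 0.01 on a log axis in each library for the 27 zinc finger genes of chromosome 19 with an adjusted p under 0.01, ordered by log2 fold change. Red circles are the 3 2KR-MYB libraries and blue squares the 3 ANAA-MYB libraries; the groups do not overlap for any of the 27 genes, and ZNF677 and ZNF880 are the widest apart.

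Below ZNF677 and ZNF433, 8 further genes completed the 10 largest increases. ZNF461 read 3.03, 2.73 and 2.66 against 0.197, 0.891 and 0.332 FPKM (log2 fold change 1.40 ± 0.17). ZNF875, also known as HKR1, read 1.97, 2.176 and 2.12 against 0.153, 0.268 and 0.156 FPKM (1.37 ± 0.11). ZNF569 read 6.23, 6.02 and 5.04 against 1.76, 1.98 and 2.44 FPKM (1.15 ± 0.11). Each of these 3 was separated from the other rescue by more than the spread between its libraries, and all 3 lie in the same cluster. ZNF91, which is known to silence SVA elements, read 7.65, 7.01 and 7.19 against 3.90, 3.06 and 3.84 FPKM (0.85 ± 0.091). ZNF527 read 2.50, 2.19 and 2.16 against 0.944, 0.615 and 0.949 FPKM (0.84 ± 0.11), and ZNF525 read 4.80, 5.72 and 5.61 against 2.63, 2.63 and 2.71 FPKM (0.80 ± 0.083). The limma adjusted p-values of these 6 genes ran from 0.000124 for ZNF875 to 0.00157 for ZNF527, and without a filter on low values ZNF461 and ZNF527 missed the threshold (0.0102 and 0.0113).

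The last of the 10 rest on weaker ground. ZNF724 read 2.84, 2.75 and 2.29 against 0.778, 1.23 and 1.08 FPKM, but 41.8% of the 100-base words of its transcripts also occur in transcripts of other genes, so its reads could be shared with a near copy, and its call was lost without 2KR-MYB replicate 1 or 2 (limma adjusted p 0.0106 for each). ZNF728 read 2.43, 2.82 and 2.32 against 0.951, 0.931 and 1.498 FPKM, and its call was lost with any of 5 libraries left out (limma adjusted p up to 0.0215). The 12 genes past the threshold that the naming rule did not reach were all higher with 2KR-MYB, with log2 fold changes from 0.40 (ZNF235) to 0.63 (ZNF416). Among them were ZNF224, a repressor of the aldolase A gene, at 7.12, 6.26 and 7.52 against 4.27, 4.19 and 4.76 FPKM, and ZNF846, with 11.7% shared words. ZNF224, ZNF846, ZNF235 and ZNF416 were picked out after their values were seen. With each library left out in turn, 11 genes were called every time: ZNF433, ZNF93, ZNF91, ZNF461, ZNF875, ZNF527, ZNF569, ZNF880, ZNF677, ZNF525 and ZNF584. In the family 44 of 253 genes shared over 10% of their words, 26 of these were tested, and ZNF724 and ZNF846 were the 2 called.

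The genes were grouped into clusters wherever neighbours lay within 500000 bases of each other and at least 5 followed each other, which gave 10 clusters holding 239 of the 253 genes, each named by its first and last gene. Calls were spread over 8 of the 10 clusters, and each share is to be read against the background of 13.0% (5.57% higher with 2KR-MYB). By count of tested genes called, the run from ZNF565 to ZNF573 had 5 of 20 (25%), all higher with 2KR-MYB (ZNF461, ZNF567, ZNF875, ZNF527 and ZNF569), and the run from ZNF264 to ZNF446 had 6 of 25 (24.0%), 5 of them higher. The run from ZNF101 to ZNF254 had 5 of 26 (19.2%), with 4 higher and ZNF257 lower, and the run from ZNF175 to ZNF331 had 4 of 33 (12.1%, near the background), with ZNF880 lower. The run from ZNF575 to ZNF180 had 3 of 13 (23.1%), all higher, and 12 of its 13 tested genes had a positive log2 fold change, with a median of 0.29. The short run from ZNF302 to ZNF792 had the largest share, 1 of 3, which was ZNF30 at 5.41, 5.25 and 4.79 against 2.73, 3.35 and 3.46 FPKM (log2 fold change 0.56 ± 0.093), a call lost with any of 4 libraries left out (limma adjusted p up to 0.0179).

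The remaining clusters held few calls or none. The run from ZNF628 to ZNF835 had no call among 10 tested genes, 1 positive log2 fold change and a median of -0.15. The run from ZNF554 to ZNF77 had none among 3, and the 11 tested genes outside clusters had none, with a median of -0.097. ZNF653 to ZNF791 had 2 of 16 called (12.5%) and ZNF414 to ZNF846 had 1 of 11 (9.09%). The bounds of all 10 clusters also hold 46 tested genes that are not zinc finger genes of this family. Of these 8 were called, to be read against the background of 13.0% of all tested genes, and their directions were not counted. With 1 library left out, 5 to 7 clusters kept a call.

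**Figure D4:**
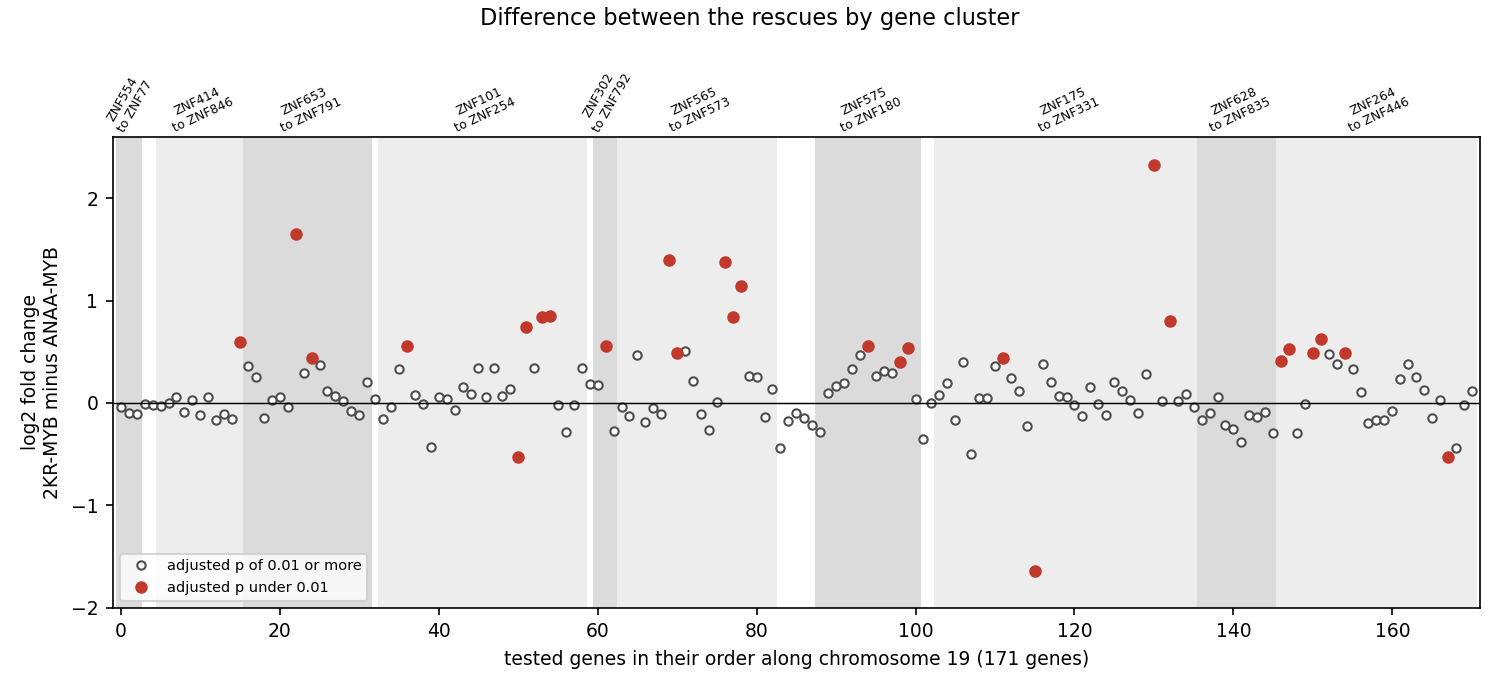
Log2 fold change (2KR-MYB minus ANAA-MYB) of the 171 tested genes in their order along chromosome 19, with clusters shaded and named by their first and last gene and unshaded genes outside clusters. Filled red circles passed an adjusted p of 0.01; the run from ZNF565 to ZNF573 holds 5 of them, all above 0, and the run from ZNF628 to ZNF835 holds none.

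Genes that start back to back gave a closer view of neighbours. A start within 1000 bases of another gene's start on the opposite strand was found for 32 pairs that include a family member, of which 12 had both genes tested and 7 of the 12 moved with the same sign. ZNF461 and ZNF567, whose starts are 97 bases apart, were both called. ZNF567 read 5.73, 5.62 and 5.40 against 3.40, 3.55 and 4.20 FPKM, a log2 fold change of 0.48 ± 0.084 (SE, limma adjusted p 0.00451), a smaller change than that of ZNF461 in a gene expressed in both rescues. ZNF569 and ZNF570 start 328 bases apart. ZNF570 averaged under 1 FPKM and read 0.399, 0.543 and 0.545 against 0.083, 0.098 and 0.170 FPKM, higher in every 2KR-MYB library, as ZNF569 was. ZNF584 and its divergent transcript ZNF584-DT, 186 bases apart, did not move alike in size, with log2 fold changes of -0.52 and -0.0018. The libraries were strand-specific, but how the counting used strand is not given in the sources used here. These pairs were picked out after their values were seen.

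The direction seen in the tested genes was also seen in those too low to test. Of 78 family genes with a mean above 0 and under 1 FPKM, the 3 2KR-MYB values of 35 all exceeded the ANAA-MYB values (44.9%), and those of 3 all fell short of them (3.85%). Over all 15902 genes in that range the shares were 10.8% and 4.87%, and over the 5962 protein-coding ones 18.01% and 6.16%. The low family genes were also the more expressed, with a median of 0.231 FPKM against 0.0524 FPKM for all. Within 0.1 to 1 FPKM, 31 of 55 family genes were above and 3 below, or 56.4% and 5.45%, against 28.8% and 10.3% of 2285 protein-coding genes and 17.5% and 8.34% of all 5900 genes at that level. Low ZNF and ZFP genes on other chromosomes gave 13 above and 7 below of 65, and other low protein-coding genes of chromosome 19 gave 58 above and 29 below of 385. Among the clusters the low genes of the run from ZNF575 to ZNF180 were above in 8 of 10, those from ZNF565 to ZNF573 in 7 of 9 and those from ZNF264 to ZNF446 in 7 of 17.

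Without the filter on low values, 22 of 249 family genes passed limma's adjusted p of 0.01 (8.84%, background 3.30%), 19 of them higher with 2KR-MYB (7.63%, background 1.38%). That background takes in 28536 genes, 15902 of them averaging under 1 FPKM, a larger part than in the family, so it is not a like one. At 0.1 to 1 FPKM, 12 of 55 family genes and 121 of 2285 protein-coding genes passed, 11 and 83 of them higher with 2KR-MYB. The 22 family genes were 10 of the 27 genes above and 12 that average under 1 FPKM, of which 11 were higher with 2KR-MYB. They were picked out after their values were seen. ZNF71 read 0.819, 0.562 and 0.631 FPKM with 2KR-MYB and 0, 0 and 0.0034 FPKM with ANAA-MYB. ZNF568, whose mouse counterpart represses a placental promoter of Igf2, read 0.578, 0.595 and 0.768 against 0.014, 0.011 and 0.020 FPKM. Its partner ZNF829, which starts 41 bases away on the other strand, read 0.289, 0.274 and 0.386 against 0.013, 0.0047 and 0.0039 FPKM. In all 3 the ANAA-MYB clone was at or near 0 in every library while the 2KR-MYB clone was not.

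ZNF112 read 0.904, 1.01 and 0.926 against 0.080, 0.055 and 0.097 FPKM, and ZNF790 read 1.66, 1.39 and 1.77 against 0.223, 0.147 and 0.326 FPKM. ZNF549 read 0.317, 0.485 and 0.369 against 0.0038, 0.0043 and 0 FPKM, and ZNF256 read 0.369, 0.331 and 0.262 against 0.012, 0.013 and 0.0092 FPKM. The other 4 that were higher, ZNF671, ZNF302, ZNF382 and ZNF233, differed by 2.53-fold (ZNF233) to 2.94-fold (ZNF382) between means. ZNF606 alone of the 12 was higher with ANAA-MYB, at 0.116, 0.044 and 0.050 against 0.632, 0.635 and 0.812 FPKM. Its log2 fold change was -0.66 ± 0.060 (SE, limma adjusted p 0.00373 without the filter), and ZNF606 lies in the run from ZNF264 to ZNF446, where ZNF584, lower with 2KR-MYB too, is found.

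**Figure D5:**
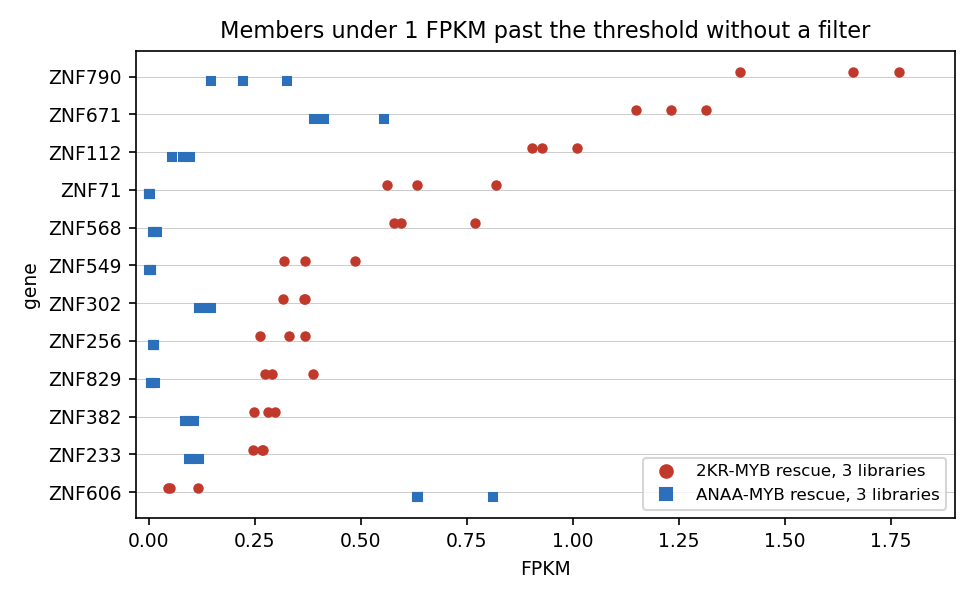
FPKM in each library (linear axis) for the 12 family genes that average under 1 FPKM and pass an adjusted p of 0.01 when no filter on low values is applied. Red circles are 2KR-MYB libraries and blue squares ANAA-MYB libraries; 11 genes are higher with 2KR-MYB in every library, and ZNF606 is lower.

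Within the family the calls lay in genes whose reading frame carries a KRAB pattern. A KRAB A box pattern was found in the longest reading frames of 215 of the 252 genes that had one, 144 of them tested. All 27 called genes were among these (18.8% of 144, background 13.0%), 24 of them higher with 2KR-MYB (16.7%, background 5.57%). The 27 tested genes without the pattern had 0 calls, 12 at an unadjusted p under 0.05, and a median log2 fold change of -0.090 against 0.068 with the pattern. At a background of 13.0% few calls would fall among 27 genes, and no test between the groups was made. The pattern was loosened after a stricter one missed genes of the family. These groups also differed in base composition, with a median transcript GC content of 61.4% without and 44.6% with the pattern, and 60.9% in the other protein-coding genes of chromosome 19. After a correction for GC content the medians were 0.013 without and 0.039 with the pattern, with 1 and 24 calls, and -0.027 for the other genes of the chromosome. By GC content, 16 of 79 family genes under 45% were called (background 12.1% of all tested genes in that range), 10 of 68 between 45% and 55% (12.3%) and 1 of 24 above (14.9%).

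The calls were also counted by level and by number of fingers, with no test between the classes. Of the 91 genes averaging 1 to 5 FPKM, 20 were called, 19 of them higher with 2KR-MYB (20.9% against 6.94% of all genes at that level). At 5 to 10 FPKM there were 3 of 45, all higher (6.67% against 6.13%). At 10 FPKM or more there were 4 of 35, with 2 in each direction (5.71% higher with 2KR-MYB against 4.80%), so both upper classes were near the background. The proteins had a median of 12 C2H2 fingers, with a range of 0 to 36. Genes with more than 15 fingers had 9 of 45 called (20.0%), all higher with 2KR-MYB, those with 12 to 15 had 7 of 54 (12.96%) and those with up to 11 had 11 of 72 (15.3%), against 13.0% of all tested genes and in no order of finger number.

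The partners through which KRAB zinc finger proteins act were listed apart. Of 27 corepressor and SUMO pathway genes, all tested, 1 passed the threshold (3.70%, background 13.0%). Their median log2 fold change was -0.051, 9 of 27 were positive, and the libraries did not overlap for 3 with 2KR-MYB on top and for 10 with ANAA-MYB on top. The gene past the threshold was UHRF1, which recognizes hemimethylated DNA and recruits the maintenance methyltransferase DNMT1, at 26.6, 28.9 and 28.6 against 38.9, 39.6 and 41.9 FPKM (log2 fold change -0.50 ± 0.053, limma adjusted p 0.000495). TRIM28 read 188, 198 and 195 against 201, 226 and 206 FPKM, a log2 fold change of -0.12 ± 0.055 (SE, limma adjusted p 0.143). SETDB1 read 24.2, 27.1 and 28.1 against 21.0, 22.2 and 22.8 FPKM, a log2 fold change of 0.26 ± 0.067 (SE, limma adjusted p 0.0253), and it passed under upper quartile scaling (0.00812) and quantile normalization (0.00982). Their libraries did not overlap between the rescues for either gene, as for 44.9% of all tested genes, and a p above the threshold does not show that their levels were equal.

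MYB itself read 69.0, 61.2 and 67.5 against 53.6, 55.3 and 62.0 FPKM (log2 fold change 0.21, not past the threshold), where endogenous and rescue transcripts are counted together, so the knockdown was not checked here. All 12 listed K562 markers were at or above 1 FPKM in every library. Of 12 listed markers of other cell types, PECAM1 had no row in the expression table under that symbol. Of the others, 5 were under 1 FPKM in all 6 libraries, with MS4A1 at 0, while CD3D, EPCAM, KRT18 and LYZ were expressed. The summed level of the markers with values ran from 199 to 219 FPKM with 2KR-MYB and from 231 to 247 FPKM with ANAA-MYB. Markers of that list moved in both directions. CD3D read 26.1 to 30.6 against 42.8 to 62.7 FPKM (limma adjusted p 0.00195) and LYZ 9.11 to 12.1 against 19.1 to 24.2 FPKM (0.000658), while COL1A1 read 1.34 to 2.86 against 0.411 to 0.648 FPKM (0.00608). These 3 were picked out after their values were seen. The part of these markers in the results on zinc finger genes was not tested. The values deposited sum to 579920 to 633662 FPKM per library, and read depth is unknown.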

How the data were processed

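RNA was sequenced from 6 libraries, 3 replicates each of the 2KR-MYB and ANAA-MYB rescues. The authors used strand-specific poly(A) libraries, bcl2fastq 2.18.0.12, Trimmomatic 0.36, TopHat2 2.1.1, Cufflinks and Cuffdiff 2.2.1 on GRCh38 (names per the submitters' notes) and deposited FPKM per gene and replicate. Annotation and library scaling are not given in the sources used. The 12 other columns of per-sample values were not used. Gene IDs matched a symbol for 55854 of 58288 genes. RefSeq lists 254 genes that meet the rule, 1 of them without a row. Testing took the genes whose mean reached 1 FPKM, on the scale log2(FPKM + 1), in limma 3.58.1 (trend, R 4.3.3), two-sided, with Benjamini-Hochberg adjustment over all tested genes and a threshold of 0.01; fold changes on this scale understate low genes. The fit was tested on simulated data. An exact permutation test of FPKM was added for single genes. KRAB, finger, GC and shared-word features came from GENCODE transcript sequences without coordinates. Tables and figures were made with Python 3.11.15, pandas 2.3.3, numpy 2.4.6 and matplotlib 3.10.9. The members and lists were chosen with earlier results of these data known. The genes named are MYB, the 10 largest differences in each direction among family genes past the threshold, the 5 highest by mean, genes under 0.1 FPKM in one rescue and at least 1 FPKM in the other, called genes of the cluster with the highest share called, TRIM28, SETDB1 and called corepressor genes; others are said to be picked after their values were seen. Alternatives were other pseudocounts, filters, scalings, variance prior and threshold, a GC correction, a replicate block and leaving out each library.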

Additional observations from a re-analysis of the deposited data

How the results depend on the processing

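Family genes past the threshold numbered 27, of which 24 were higher with 2KR-MYB. A mean of at least 5 FPKM, which tests 80 of the genes, gave 7 and 5. Over all 9306 genes tested at that level, 1286 passed and 500 were higher with 2KR-MYB. The family's share was thus below the background for all calls and near it for those higher with 2KR-MYB. A threshold of 0.05 gave 51 and 41, with no background counted at that threshold, so none of the counts at 0.05 given here can be read as an excess. Leaving out 1 library gave 12 to 20 and 10 to 17, with 5 to 7 clusters holding a call in place of 8. The 3 higher with ANAA-MYB became 5 under quantile normalization and 10 at 0.05. Pseudocounts of 0.1 and 0.01, upper quartile scaling, quantile normalization, a robust prior and the GC correction gave 25 to 29 calls among 171 genes. Over all 12634 genes the same fits gave 1628 to 1784. Zinc finger genes of other chromosomes (18) gave 10 at 5 FPKM, 49 at 0.05 and 9 to 13 with a library left out. Other protein-coding genes of the chromosome (96) gave 44 without a filter, 54 without a filter and with a pseudocount of 0.1, 199 at 0.05 and 49 to 66 with a library left out. Corepressor genes past the threshold (1) numbered 2 under upper quartile scaling, 2 under quantile normalization and 5 at 0.05. The median difference of the family (0.056) was 0.104 without a filter and with a pseudocount of 0.1, an alternative chosen after seeing the data. Over all genes, calls fell from 1642 to between 831 and 1139 with a library left out and were 942 without a filter. In these alternatives no named gene changed sign. Where calls were lost, the cause was not tested. No read counts were at hand, so depth sets a limit that cannot be given.

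The replicate numbers do not pair the samples: same-numbered libraries deviated from their group means with correlations of -0.052, -0.035 and -0.0026, and no library correlated best with the one of its own number. With the replicate block, family calls fell to 13 of 171, of which 11 were higher with 2KR-MYB and all were among the 27. Calls in other genes of the chromosome fell to 61. Over all genes they fell to 1089 of 12634, of which 411 were higher with 2KR-MYB. The family's share of all calls was thus slightly below the background, while its share higher with 2KR-MYB was above it.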
